A study of Mus musculus with 8 samples.

Results

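Interferon-stimulated genes were compared between invariant natural killer T (iNKT) cells of the skin and of the spleen. The set held 31 genes, given by name as a list of known targets of interferon signalling, out of 22549 genes in the deposited table, and all 31 were found there. RNA was sequenced in 4 libraries of skin iNKT cells and in 4 libraries of spleen iNKT cells. Mice of both tissues carried 1 EGFP allele in place of a Ccr10 allele (genotype CCR10+/EGFP), so that no library came from mice with both Ccr10 alleles intact. The labels name no treatment, strain or age, do not describe how the cells were sorted, and do not say whether the 4 libraries of a tissue came from separate animals. Every p-value below rests on how far these libraries differ from one another, which may reflect technique alone.

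iNKT cells are T cells with a semi-invariant receptor for lipids bound to CD1d. Type I interferons act through the receptor chains IFNAR1 and IFNAR2 and the kinases JAK1 and TYK2, which activate a complex that holds STAT2 and IRF9. This complex binds the interferon-stimulated response element in the promoters of its targets. Interferon gamma, which iNKT cells themselves can secrete, acts through IFNGR1 and IFNGR2 and the kinases JAK1 and JAK2, and its target promoters carry the gamma-activated site. The induced genes encode sensors of foreign nucleic acid, enzymes that block viral replication, and regulators that amplify or end the response.

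The promoters of the members were searched for both elements. Promoter sequences from RefSeq (build GRCm38.p6, from 250 bases before to 50 bases after an annotated start) were found for 24 of the 31 members, and none for Dhx58, Zbp1, Oas2, Usp18, Mx1, Rtp4 and Parp14. A core of the response element, spelled GAAA, any 2 bases, GAAA and searched on both strands, was present for 12 of the 24 (50%), against 1079 of 27025 genes with a promoter (3.99%). The 12 were Stat2, Ddx58, Ifih1, Oas1a, Oas3, Ifit1, Ifit3, Isg15, Rsad2, Bst2, Gbp2 and Gbp3. A core of the gamma-activated site, spelled TTCNNNGAA, which reads the same on both strands, was present for 7 of the 24 (29.2%), against 2582 of the 27025 (9.55%). A match is a description of the letters and not a shown binding site.

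The 250 bases before the start are printed for the 5 members that were tested, held the response element core and had the smallest adjusted p-values, because they include the member with the smallest adjusted p (Ifit3) and the member whose skin values all lay above its spleen values (Isg15). Capitals mark the matches to the core, and each sequence is given 5′ to 3′ on the strand of its gene. Ifit3 lies on the plus strand (chr19:34583279-34583528), with matches that begin 156 and 122 bases before the start. Isg15 lies on the minus strand (chr4:156200819-156201068), with 3 matches that overlap one another and begin 78 to 66 bases before the start. Oas3 lies on the minus strand (chr5:120777660-120777909), with 1 match that begins 75 bases before the start. Ifit1 lies on the plus strand (chr19:34640639-34640888), with matches that begin 104 and 85 bases before the start. Bst2 lies on the minus strand (chr8:71537473-71537722), with matches that begin 130 and 124 bases before the start, overlap one another and overlap a match to the gamma-activated site core.
Ifit3: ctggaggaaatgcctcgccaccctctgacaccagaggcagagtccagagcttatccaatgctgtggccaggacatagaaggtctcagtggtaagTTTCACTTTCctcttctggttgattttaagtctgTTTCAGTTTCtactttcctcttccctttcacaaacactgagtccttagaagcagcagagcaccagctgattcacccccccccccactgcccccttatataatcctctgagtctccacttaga
Isg15: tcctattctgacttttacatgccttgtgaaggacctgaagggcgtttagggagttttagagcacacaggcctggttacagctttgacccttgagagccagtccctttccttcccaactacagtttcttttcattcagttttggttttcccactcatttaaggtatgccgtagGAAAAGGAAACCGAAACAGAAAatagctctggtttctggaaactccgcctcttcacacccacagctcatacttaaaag
Oas3: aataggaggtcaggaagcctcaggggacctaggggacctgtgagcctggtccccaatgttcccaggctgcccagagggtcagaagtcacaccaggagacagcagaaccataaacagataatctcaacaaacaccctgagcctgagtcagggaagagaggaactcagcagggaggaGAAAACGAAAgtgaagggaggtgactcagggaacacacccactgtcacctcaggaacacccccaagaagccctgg
Ifit1: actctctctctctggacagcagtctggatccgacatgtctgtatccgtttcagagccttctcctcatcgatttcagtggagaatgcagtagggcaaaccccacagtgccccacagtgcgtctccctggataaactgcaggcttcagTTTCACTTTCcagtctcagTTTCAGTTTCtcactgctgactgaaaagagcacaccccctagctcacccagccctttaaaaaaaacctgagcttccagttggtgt
Bst2: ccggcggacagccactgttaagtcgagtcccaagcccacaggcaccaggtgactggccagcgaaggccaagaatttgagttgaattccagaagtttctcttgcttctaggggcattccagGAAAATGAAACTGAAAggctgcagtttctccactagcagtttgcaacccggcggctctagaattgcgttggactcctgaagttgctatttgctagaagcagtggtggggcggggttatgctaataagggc

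Library totals ranged from 7221498 to 9791973 expected counts in skin and from 7191131 to 9361237 in spleen. A count above 0 was found for 5302 to 6012 genes per skin library and for 6415 to 10094 genes per spleen library (two-sided exact permutation p = 0.0286, n = 4 each, the smallest p that 4 against 4 libraries can give). Low genes also stood at 0 more often in skin. Genes at 40 to 80 CPM (counts relative to the scaled total of each library) in the other 3 libraries of a tissue stood at 0 in 37.9% of skin values and in 16.6% of spleen values. Between 160 and 320 CPM these shares were 7.46% in skin and 2.2% in spleen. All 14 markers of T cells and iNKT cells had counts in both tissues, with summed levels of 9130.5 to 10544 CPM in skin, against 9135.5 to 11959 CPM in spleen. Cxcr6 made up the most of these sums (3518 ± 901 CPM in skin, against 2660 ± 622 CPM in spleen; SD, n = 4 each), and single markers moved in opposite directions. Cd3d, a CD3 chain, was lower in skin (470.4 ± 83.9 CPM, against 1112 ± 226 CPM in spleen; edgeR adjusted p = 0.025), a call kept in 3 of the 8 fits without 1 library (those without skin replicate 2, skin replicate 4 or spleen replicate 1; edgeR adjusted p up to 0.11). Cd44, an activation and memory marker, was higher (837 ± 204 CPM in skin, against 211 ± 50.7 CPM in spleen; edgeR adjusted p = 0.00808), also in all 8 such fits. Cd3g, Lat and Cd5 lay lower in skin without overlap and were not called, and Lck and Thy1 had lower means in skin, overlapped and were not called either.

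Fewer interferon-stimulated genes had counts in skin than in spleen iNKT cells, and of the members tested Ifit3, Dhx58 and Xaf1 were lower in skin and 0 were higher. Of the 31 members, 11 had no count in any skin library while having counts in spleen, and 0 showed the opposite. The shares of all genes with either pattern were not counted before the filter. Oasl1, Mx1 and Rsad2 had counts in spleen replicates 3 and 4 alone, and Oas2 in spleen replicate 4 alone. These were the libraries with the most genes found (8690 and 10094). Ifi44 had no count in any of the 8 libraries. In a skin library 8 to 13 of the 31 members had a count, against 21 to 30 in a spleen library. As a share, that was 25.8% to 41.9% of the members in skin and 67.7% to 96.8% in spleen. Over all 11429 genes with a count in any library, the shares were 46.4% to 52.6% in skin and 56.1% to 88.3% in spleen. The member share was thus below the share of all genes in each of the 4 skin libraries and above it in each of the 4 spleen libraries. Fewer cells carrying a transcript and less of it per cell cannot be told apart in such bulk libraries.

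**Figure D1:**
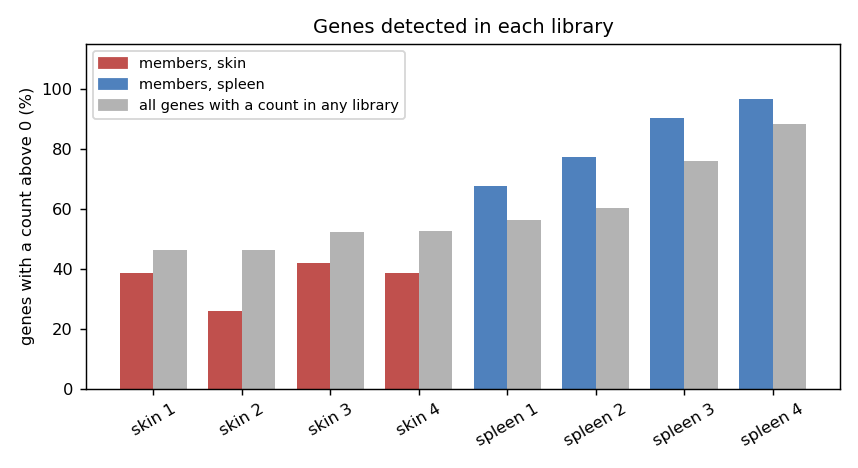
Share of genes with a count above 0 (%, vertical axis) in each library (horizontal axis), for the 31 interferon-stimulated genes (coloured bars, skin red and spleen blue) and for all genes with a count in any library (grey bars). The member bars lie between 25.8% and 41.9% in skin and between 67.7% and 96.8% in spleen.

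**Figure D2:**
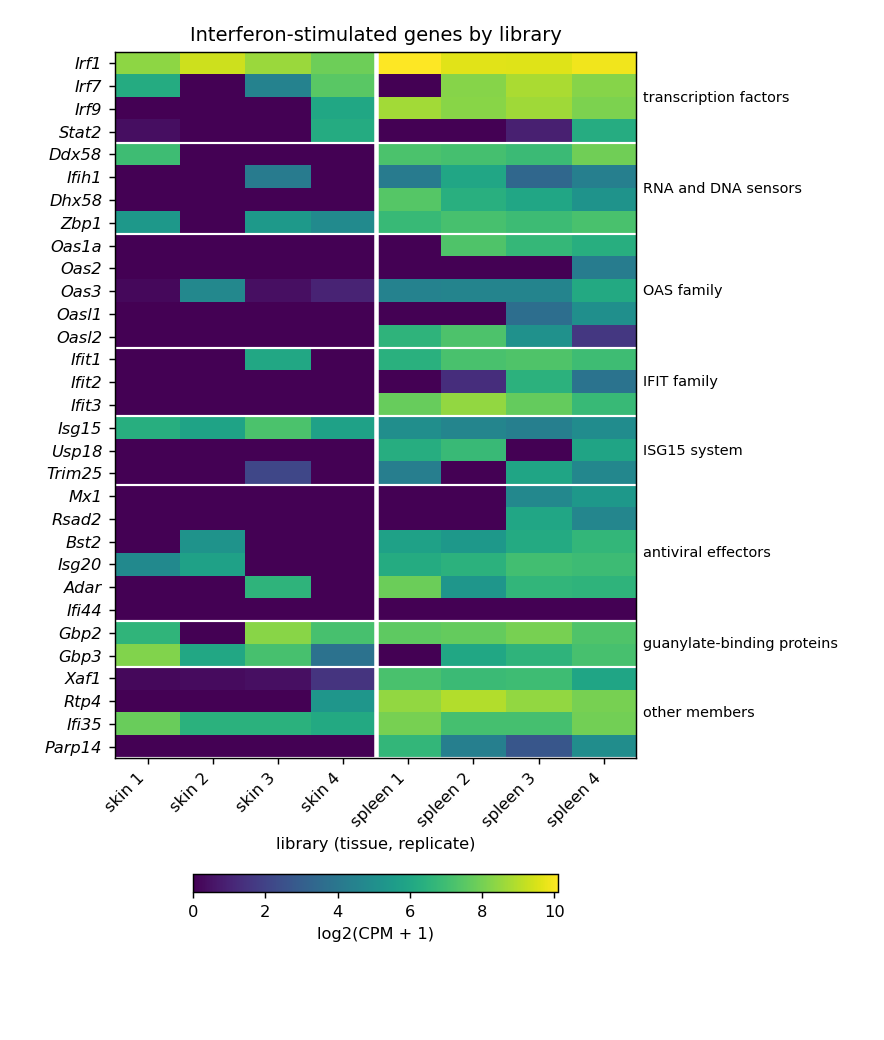
Level of each of the 31 members, as log2(CPM + 1) (colour), in the 4 skin libraries and the 4 spleen libraries (columns), with genes in rows grouped by role. Most rows are dark (at or near 0) in skin, and Isg15 is the row that is brighter in every skin library than in every spleen library.

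Of the 31 members, 22 passed the filter on low counts (edgeR's filterByExpr) and were tested, and 9 did not pass. Members that passed through their spleen values alone could only be lower in skin, so the following counts describe the tested members and are no independent support. At a Benjamini-Hochberg adjusted p under 0.05 (edgeR's quasi-likelihood test, 6920 genes), 3 of the 22 were lower in skin (13.6%), namely Ifit3, Dhx58 and Xaf1, and 0 were higher. Of all genes tested, 3.58% were called lower and 1.85% higher. Calls depended on single libraries: the number of members called lower was 4 without skin replicate 4, 2 without skin replicate 1 or 2, 1 without skin replicate 3 or spleen replicate 4, and 0 without spleen replicate 1, 2 or 3. In those fits 0.232% to 1.41% of all genes tested were called lower. DESeq2, which called 6.46% of all genes lower and 4.26% higher, called 6 members lower (Ifit3, Dhx58, Xaf1, Irf1, Oasl2 and Parp14) and 1 higher (Isg15). Without adjustment, 7 of the 22 had a p under 0.05, against 12.4% of all genes tested. No count in any skin library was found for 4 of the 22 (18.2%), against 3.34% of all genes tested. The log2 fold change (skin over spleen) was below 0 for 20 of the 22, against 57.8% of all genes tested. The median was −2.52 for the tested members, also with the genes at 0 in skin set to their bounds, and −0.29 for all genes tested. All 4 skin values lay below all 4 spleen values for 12 of the 22 (54.5%), against 13.4% of all genes tested. The reverse held for 1 of the 22, against 6.11% of all genes tested.

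The members were also set beside genes of similar level in spleen and beside genes detected in both tissues. Between 50 and 500 CPM in spleen on average, 3 of 16 tested members stood at 0 in all 4 skin libraries (18.8%), against 129 of 3894 genes (3.31%). In this range 54.7% of the skin values of members were 0, against 25.6% of the skin values of all genes. The range was set by spleen values, and members at 0 in skin passed the filter through spleen alone. These shares describe the members and are no independent support. Among genes with a count in at least 3 libraries of each tissue, 7 of 9 members had a log2 fold change below 0. Their median was −1.19, against 0.01 for all 3944 such genes. The part that the larger share of zeros in skin libraries played in these differences was not tested.

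**Figure D3:**
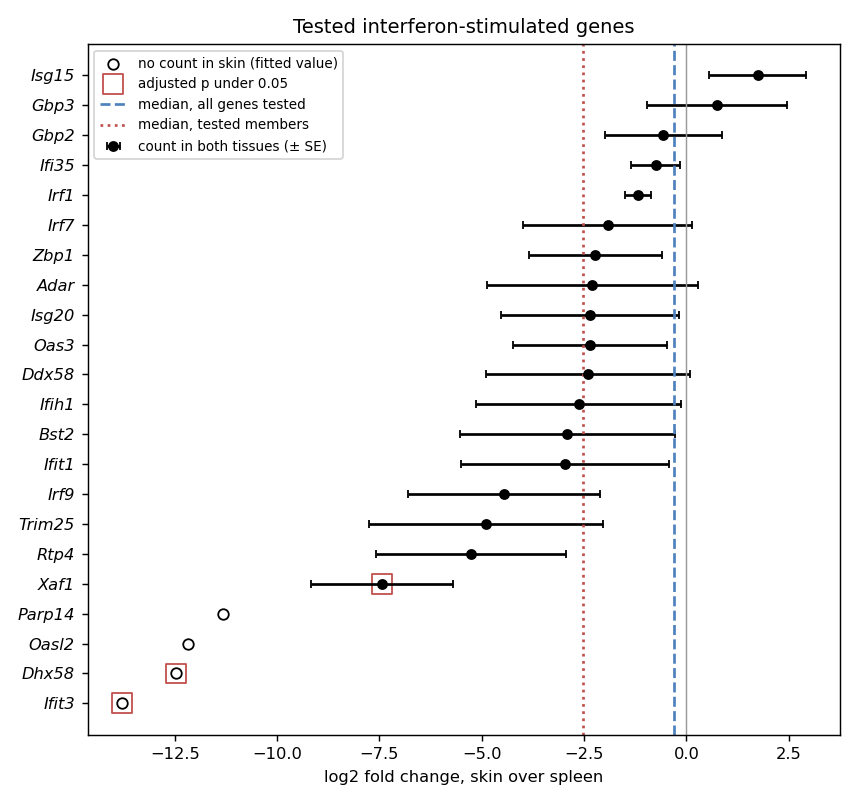
Log2 fold change, skin over spleen, of the 22 tested members (horizontal axis) with their standard errors, one gene per row. Open circles are genes with no count in skin, whose fitted value depends on the prior count and is no measure of size, red squares mark adjusted p under 0.05, and the lines mark the medians of −2.52 for tested members and −0.29 for all genes tested.

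Among the transcription factors, Irf1 was found in every library. Irf1, a transcription factor induced by interferon gamma, stood at 334, 641, 380 and 231 CPM in skin, against 1100, 804, 781 and 939 CPM in spleen. Every skin value lay below every spleen value, but the change did not pass the test with all 8 libraries (log2 fold change −1.19 with SE 0.32; edgeR adjusted p = 0.0694), while DESeq2 called Irf1 lower (adjusted p = 0.0253). Skin replicate 2 held the highest skin value, and without it Irf1 was called lower (log2 fold change −1.57; edgeR adjusted p = 0.0328). Irf9, the DNA-binding subunit of the type I interferon complex, stood at 0, 0, 0 and 64.4 CPM in skin, against 421, 314, 402 and 279 CPM in spleen. The single skin value came from replicate 4. With it the gene was not called (edgeR adjusted p = 0.572). Without it no skin count was left, and the gene was called lower (edgeR adjusted p = 0.0019), in a fit that could only move it lower.

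Irf7, which drives the interferon alpha genes, stood at 74.2, 0, 21.2 and 184 CPM in skin, against 0, 303, 450 and 307 CPM in spleen. Its tissues overlapped, since spleen replicate 1 had no count, and it was not called (edgeR adjusted p = 0.998). Stat2, the partner of IRF9, was too rare to test. It reached 72.9 CPM in skin replicate 4 and 75.4 CPM in spleen replicate 4 and stayed below 1 CPM in the other 6 libraries.

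Of the 4 sensors of foreign nucleic acid, 1 was lower in skin and the other 3 did not pass the test. Dhx58, which encodes the RIG-I-like receptor LGP2, had no count in skin and stood at 174, 82.7, 62.6 and 35.1 CPM in spleen. Taking 3 counts in each library as the detection floor, Dhx58 was at least 229-fold lower in skin (edgeR adjusted p = 0.0473). Such bounds cover counting error only. The call of Dhx58 was close to the threshold and was lost in each of the 8 fits without 1 library (edgeR adjusted p = 0.0703 to 0.137). Ddx58, which encodes RIG-I, stood at 123 CPM in skin replicate 1 and at 0 in the other 3 skin libraries, against 152, 139, 117 and 242 CPM in spleen. It was not called (edgeR adjusted p = 0.996). Without skin replicate 1, which held its skin count, Ddx58 was called lower (edgeR adjusted p = 0.0314).

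Zbp1, a sensor of Z-form nucleic acid, stood at 40.4, 0, 43.4 and 27.5 CPM in skin, against 112, 141, 120 and 147 CPM in spleen. The tissues did not overlap, and the change did not pass the test (log2 fold change −2.22 with SE 1.63; edgeR adjusted p = 0.865). Ifih1, which encodes the RNA sensor MDA5, was low in both tissues. It stood at 17.4 CPM in skin replicate 3 and at 0 in the other skin libraries, against 9.26 to 62.1 CPM in spleen, and the gene was not called.

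The IFIT family, whose proteins bind viral RNA, held the member with the smallest adjusted p. Ifit3 was without counts in all 4 skin libraries and stood at 213, 353, 207 and 112 CPM in spleen. Ifit3 was called lower in skin (edgeR adjusted p = 0.0127), by the same floor at least 571-fold, a bound with the limit given for Dhx58. The call was kept in 5 of the 8 fits without 1 library. It was lost without spleen replicate 1, 2 or 3 (edgeR adjusted p = 0.055, 0.0895 and 0.0786). Ifit1 stood at 0, 0, 66.1 and 0 CPM in skin, against 84.2, 147, 159 and 124 CPM in spleen. The tissues did not overlap and Ifit1 was not called (edgeR adjusted p = 0.938). Ifit2 had no count in skin and 0, 1.48, 89.8 and 13.5 CPM in spleen, and was not tested.

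Close copies of Ifit3 and Ifit1, with which reads may be shared, had no count in skin, as Ifit3 did and unlike Ifit1, which had a count in skin replicate 3. They were named after their values were seen. The row I830012O16Rik, which RefSeq now lists as Ifit3b, had no count in skin and stood at 188, 59.8, 21.8 and 53.8 CPM in spleen (edgeR adjusted p = 0.0473). Gm14446, now Ifit1bl1, had no count in skin and stood at 287, 374, 27.2 and 46.7 CPM in spleen (edgeR adjusted p = 0.0462). Neither was refitted without single libraries. The split of counts among these copies is uncertain, but no reads were assigned to Ifit3 or to either copy in skin.

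The oligoadenylate synthetase family, some members of which trigger the decay of viral RNA through RNase L, had counts in skin for Oas3 alone, and 0 of the 2 tested passed. Oasl2 had no count in skin and stood at 94.6, 157, 33.6 and 2.08 CPM in spleen. It was not called by edgeR (adjusted p = 0.0712) and was called lower by DESeq2 (adjusted p = 1.05e-06). The floor alone put Oasl2 at least 185-fold lower, a bound with the limit given for Dhx58. Oas3 stood at 0.151, 25, 0.341 and 0.988 CPM in skin, against 21.6, 22.5, 22.7 and 69.6 CPM in spleen. Skin replicate 2 was the library that overlapped with spleen, and Oas3 was not called (edgeR adjusted p = 0.904). Oas1a had no count in skin and 0, 159, 105 and 79.8 CPM in spleen. Its neighbour Oas1c, named after its values were seen, had no count in skin either and 136, 59.4, 0 and 32 CPM in spleen. Oasl1 reached 31.4 CPM and Oas2 reached 18.1 CPM in spleen replicate 4, and neither had a count in skin. Oas1a, Oas2 and Oasl1 were not tested.

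Isg15, a ubiquitin-like protein that is attached to other proteins in the interferon response, was found in all 8 libraries. It stood at 80.7, 57.8, 149 and 54.8 CPM in skin, against 31.3, 23, 19.4 and 28.8 CPM in spleen. It was the member for which every skin value lay above every spleen value. The means were 85.6 ± 43.9 CPM in skin, against 25.6 ± 5.42 CPM in spleen (SD, n = 4 each), a log2 fold change of 1.74 (SE 1.19). This change did not pass the test (edgeR adjusted p = 0.81), nor in any of the 8 fits without 1 library (edgeR adjusted p = 0.574 to 0.9999), while DESeq2 called it higher (adjusted p = 0.0491). Usp18, the protease that removes ISG15 and restrains the type I receptor, had no count in skin and 77.8, 114, 0 and 58 CPM in spleen. Usp18 was not tested. Trim25, a ubiquitin ligase that acts on RIG-I, stood at 3.41 CPM in skin replicate 3 and at 0 in the other skin libraries, against 19.2, 0, 60 and 24.8 CPM in spleen. It was not called.

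The remaining antiviral effectors were detected in few skin libraries, and 0 of the 3 tested were called. Bst2, which encodes the tetherin that holds budding virions at the membrane, stood at 35.5 CPM in skin replicate 2 and at 0 in the other skin libraries, against 53.7, 40.5, 71 and 102 CPM in spleen. Isg20, an RNA exonuclease, stood at 26.8, 54.4, 0 and 0 CPM in skin, against 73.5, 88.9, 130 and 122 CPM in spleen. The tissues did not overlap for Bst2 or Isg20, and neither passed (edgeR adjusted p = 0.957 for Bst2 and 0.968 for Isg20). Under limma-voom Bst2 was called lower (adjusted p = 0.0287) and Isg20 was not (adjusted p = 0.0848). Adar, which edits adenosine to inosine in double-stranded RNA, stood at 93.3 CPM in skin replicate 3 and at 0 in the other skin libraries, against 39.1 to 228 CPM in spleen. Mx1, a dynamin-like GTPase, and Rsad2, which encodes viperin, had no count in skin. In spleen Mx1 stood at 0, 0, 25.7 and 40.6 CPM, and Rsad2 at 0, 0, 62 and 24.2 CPM.

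The guanylate-binding proteins, GTPases induced mainly by interferon gamma, overlapped between the tissues. Gbp2 stood at 97.8, 0, 315 and 141 CPM in skin, against 191, 210, 258 and 159 CPM in spleen (log2 fold change −0.56 with SE 1.43). Gbp3 stood at 287, 66, 142 and 13 CPM in skin, against 0, 63.8, 95.1 and 143 CPM in spleen (log2 fold change 0.75 with SE 1.7). Without skin replicate 1 the sign of Gbp3 turned (log2 fold change −0.058). Neither gene was called (edgeR adjusted p = 0.998 for each).

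Among the other members, Xaf1, which binds the apoptosis inhibitor XIAP, was nearly missing from skin. It stood at 0.151, 0.22, 0.341 and 1.84 CPM in skin, against 147, 117, 125 and 61.1 CPM in spleen (log2 fold change −7.44 with SE 1.73; edgeR adjusted p = 0.0473). The fitted difference was 173-fold. Its size is uncertain, because skin replicates 1, 2 and 3 lay at or below the floor of 3 counts. The call was kept in 1 of the 8 fits without 1 library, that without skin replicate 4 (edgeR adjusted p = 0.0416), and was lost in the other 7 (edgeR adjusted p up to 0.137). Rtp4, a Golgi chaperone of receptors, stood at 0, 0, 0 and 38.3 CPM in skin, against 357, 496, 357 and 262 CPM in spleen. It was not called (edgeR adjusted p = 0.402), and was called lower without skin replicate 4, which held its skin count (edgeR adjusted p = 0.00196). Parp14, an ADP-ribosyltransferase, had no count in skin and stood at 103, 19.6, 5.56 and 30 CPM in spleen (edgeR adjusted p = 0.0593, not called; DESeq2 adjusted p = 2.25e-05). Ifi35 was found in every library, at 221, 87, 87.6 and 69.3 CPM in skin, against 263, 138, 138 and 245 CPM in spleen. Its tissues overlapped through skin replicate 1, and it was not called (log2 fold change −0.75 with SE 0.61).

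**Figure D4:**
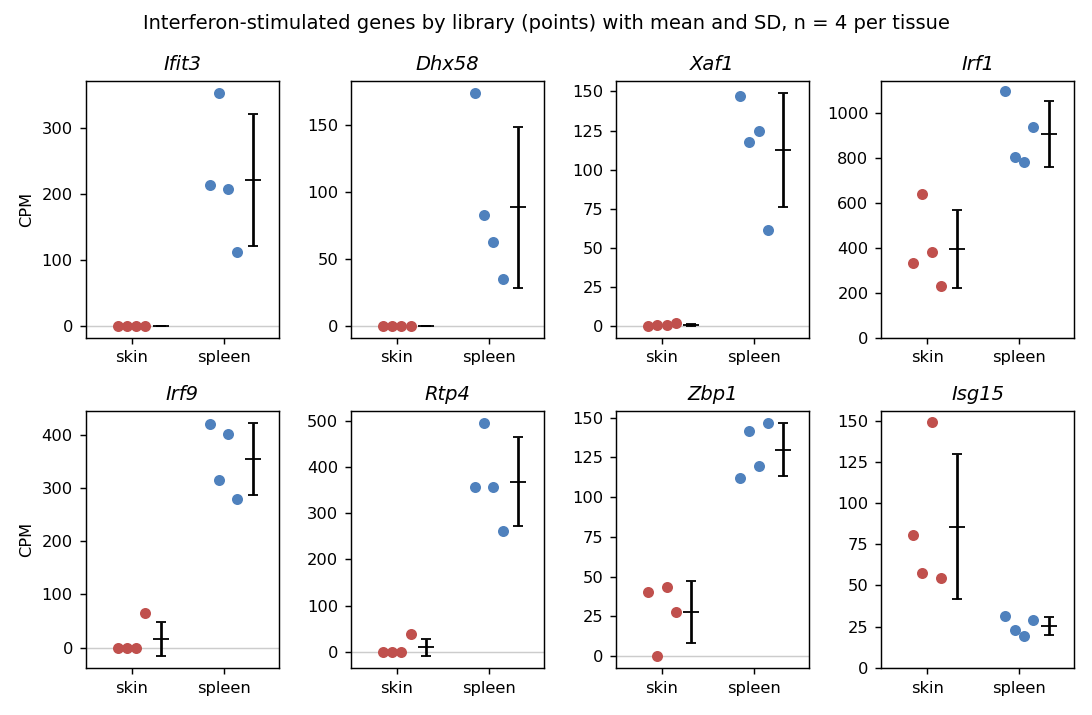
Level of 8 members in CPM (vertical axes, linear) in each of the 4 skin libraries (red points) and the 4 spleen libraries (blue points), with the mean and SD of each tissue. Ifit3 and Dhx58 are at 0 in every skin library, Xaf1 is at most 1.84 CPM in skin, Irf9 and Rtp4 have a skin count in replicate 4 alone, and Isg15 is higher in every skin library than in every spleen library.

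The skin counts of the rarer members were scattered over the libraries. Of the 22 tested members, 8 had a count in a single skin library. These counts fell in replicate 4 for Irf9 and Rtp4, in replicate 3 for Ifit1, Ifih1, Adar and Trim25, in replicate 1 for Ddx58 and in replicate 2 for Bst2. Leaving out that library left no skin count, so such a fit could only move the gene lower and is no independent support. A call was then gained for Irf9, Rtp4 and Ddx58. None was gained for Ifit1, Adar, Bst2, Ifih1 or Trim25 (edgeR adjusted p = 0.0564, 0.0746, 0.0913, 0.095 and 0.175). Summed over the 31 members, the level was 1285, 967, 1319 and 899 CPM in skin, against 3934, 4036, 4016 and 3888 CPM in spleen. Irf1 alone made up 641 of the 967 CPM in skin replicate 2.

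The wider interferon pathway was measured with 7 lists, chosen with earlier results of these data known, of which 124 genes were in the table and 81 were tested. Of these 81, 1 was higher and 8 were lower in skin (edgeR adjusted p under 0.05), beside 1.85% higher and 3.58% lower among all genes tested. The median log2 fold change of the 81 was −1.02.

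Of the 21 interferon genes, Ifng had counts and the other 20 had none in any library. Ifng, which encodes interferon gamma, stood at 218, 105, 116 and 54.2 CPM in skin, against 42.3, 129, 137 and 285 CPM in spleen. The values overlapped and Ifng was not called (log2 fold change −0.27 with SE 0.78; edgeR adjusted p = 0.998).

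Among receptors and kinases, 1 of 7 tested was higher and 0 were lower. The higher gene was Ifngr1, the ligand-binding chain of the interferon gamma receptor, at 2894, 2455, 1687 and 2000 CPM in skin, against 577, 340, 656 and 471 CPM in spleen. It was 4.42-fold higher in skin cells (log2 fold change 2.14 with SE 0.26; edgeR adjusted p = 0.00426), and it was called in each of the 8 fits without 1 library and in each of the other 9 alternatives. Ifngr2, the other chain, had counts in skin replicates 2 and 3 (98.9 and 108 CPM) and none elsewhere, and was not tested. Ifnar1 stood at 117 ± 104 CPM in skin, against 124 ± 81.1 CPM in spleen, and Jak1 at 1021 ± 481 CPM in skin, against 871 ± 167 CPM in spleen (SD, n = 4 each). Neither was called. Jak2 stood at 163, 75.05, 83.2 and 177 CPM in skin, against 516, 415, 236 and 432 CPM in spleen, without overlap, and did not pass (log2 fold change −1.68 with SE 0.44; edgeR adjusted p = 0.0609).

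Of the other STAT and IRF factors, 0 of 6 tested were called. Irf3, the factor that turns on interferon beta, stood at 29.4 ± 33.6 CPM in skin, against 148 ± 29.8 CPM in spleen, and Irf2 at 81.8 ± 59.6 CPM in skin, against 135 ± 66.9 CPM in spleen (SD, n = 4 each).

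Among sensing adaptors and kinases, 1 of 8 tested was lower and 0 were higher. The lower gene was E330016A19Rik, which RefSeq now lists as Cgas, the sensor of cytosolic DNA. It had no count in skin and 34.5 ± 7.28 CPM in spleen (at least 89.2-fold lower; edgeR adjusted p = 0.0473), and its call was lost in each of the 8 fits without 1 library (edgeR adjusted p up to 0.137). Tmem173, which encodes its adaptor STING, stood at 162 ± 68.6 CPM in skin, against 459 ± 212 CPM in spleen without overlap (edgeR adjusted p = 0.116, not called). Myd88, the adaptor of Toll-like receptors, lay above spleen in every skin library, at 351 ± 129 CPM against 95.3 ± 91 CPM in spleen, and the gene was not called (edgeR adjusted p = 0.881). Tbk1 stood at 160 ± 120 CPM in skin, against 111 ± 91.4 CPM in spleen (edgeR adjusted p = 0.998).

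Among inhibitors of the pathway, 0 of 9 tested were higher and 1 was lower, and 7 of the 9 had a log2 fold change above 0. Among all genes tested, 1.85% were called higher, 3.58% were called lower and 57.8% had a log2 fold change below 0. Ptpn6, which encodes the phosphatase SHP-1, was lower, at 146, 177, 219 and 155 CPM in skin against 356, 756, 580 and 830 CPM in spleen (log2 fold change −1.86 with SE 0.33; edgeR adjusted p = 0.0247). Its call was kept in 3 of the 8 fits without 1 library, those without skin replicate 3, skin replicate 4 or spleen replicate 1, and was lost under limma-voom (adjusted p = 0.0835). Ptpn1 stood at 348 ± 146 CPM in skin, against 125 ± 42.7 CPM in spleen without overlap (edgeR adjusted p = 0.126). Socs1, the feedback inhibitor of JAK kinases, stood at 126 ± 44.8 CPM in skin, against 77 ± 42.6 CPM in spleen (edgeR adjusted p = 0.998). Samhd1, which depletes deoxynucleotides, stood at 527 ± 281 CPM in skin, against 506 ± 212 CPM in spleen (SD, n = 4 each).

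Of the interferon-inducible GTPases, 0 of 14 tested were called, and all 14 had a log2 fold change below 0 (median −0.85), against 57.8% of all genes tested. The 3 most abundant were Tgtp2, at 859 ± 373 CPM in skin, against 1018 ± 239 CPM in spleen, Igtp, at 575 ± 277 CPM in skin, against 748 ± 237 CPM in spleen, and Ifi47, at 387 ± 93.1 CPM in skin, against 632 ± 116 CPM in spleen (SD, n = 4 each). All 3 overlapped between the tissues. Of the 14 tested, 3 others lay lower in every skin library than in every spleen library, against 13.4% of all genes tested. These 3 were named after their values were seen. Gvin1 stood at 6.21, 0.33, 0.227 and 2.54 CPM in skin, against 42.1, 231, 228 and 272 CPM in spleen (edgeR adjusted p = 0.05003, just above the threshold; DESeq2 adjusted p = 6.25e-07). Gbp10 stood at 0, 0, 0.227 and 0.424 CPM in skin, against 21.3, 273, 20.2 and 58.7 CPM in spleen (edgeR adjusted p = 0.0694, not called; DESeq2 adjusted p = 1.74e-07). Gbp4 stood at 98.4, 0, 161 and 16.8 CPM in skin, against 197, 321, 234 and 656 CPM in spleen (edgeR adjusted p = 0.748, not called).

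Of the other interferon-stimulated genes, 0 of 36 tested were higher and 6 were lower, and 28 of the 36 had a log2 fold change below 0 (median −1.51). Among all genes tested, 3.58% were lower, 57.8% were below 0 and the median was −0.29. Ly6e, a membrane protein, stood at 3738, 3733, 3225 and 3027 CPM in skin, against 6701, 5321, 8022 and 6311 CPM in spleen. It was lower (log2 fold change −0.94 with SE 0.14; edgeR adjusted p = 0.0127), and its call was lost without spleen replicate 1 (edgeR adjusted p = 0.0514) and kept in the other 7 fits without 1 library. Under limma-voom Ly6e was not called (adjusted p = 0.712). Slfn8, of the Schlafen family, had no count in skin and stood at 177, 188, 172 and 105 CPM in spleen. It was called lower (edgeR adjusted p = 0.0278), by the floor alone at least 415-fold. Its call was kept without each of the skin libraries and lost without any 1 spleen library (edgeR adjusted p up to 0.137).

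Sp100, a component of nuclear bodies, stood at 39.05, 162, 162 and 161 CPM in skin, against 428, 585, 640 and 724 CPM in spleen (log2 fold change −2.18 with SE 0.47; edgeR adjusted p = 0.0473). Its call was kept without skin replicate 1 (edgeR adjusted p = 0.0171) and lost in the other 7 fits. Lgals3bp, a secreted ligand of galectins, stood at 74.6, 320, 149 and 113 CPM in skin, against 669, 527, 1190 and 494 CPM in spleen (log2 fold change −2.13 with SE 0.51; edgeR adjusted p = 0.048). Its call was kept without skin replicate 2 (edgeR adjusted p = 0.0328) and lost in the other 7 fits without 1 library. Of the 9 other alternatives, 4 kept the call. Upper-quartile scaling and limma-voom (adjusted p = 0.224) were among those that lost it. Trim34a, of the tripartite motif family, had no count in skin and 128 ± 58.3 CPM in spleen. It was called lower (edgeR adjusted p = 0.0422), by the floor alone at least 329-fold. Its call was kept without skin replicate 4 alone (edgeR adjusted p = 0.0426). Herc6, a ligase that attaches ISG15 in mice, had no count in skin and 99.9 ± 81.6 CPM in spleen. It was called lower (edgeR adjusted p = 0.0473), by the floor alone at least 258-fold. Its call was lost in all 8 fits without 1 library (edgeR adjusted p = 0.0714 to 0.137). Psmb8, a subunit of the immunoproteasome, stood at 744 ± 362 CPM in skin, against 1764 ± 414 CPM in spleen without overlap, and was not called (edgeR adjusted p = 0.0639). Of the 8 fits without 1 library, Psmb8 was called in that without skin replicate 1, its highest skin value (edgeR adjusted p = 0.014). It was not called in the other 7 (edgeR adjusted p up to 0.179). Lgals9 stood at 642 ± 245 CPM in skin, against 604 ± 164 CPM in spleen, and the gene was not called (SD, n = 4 each).

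**Figure D5:**
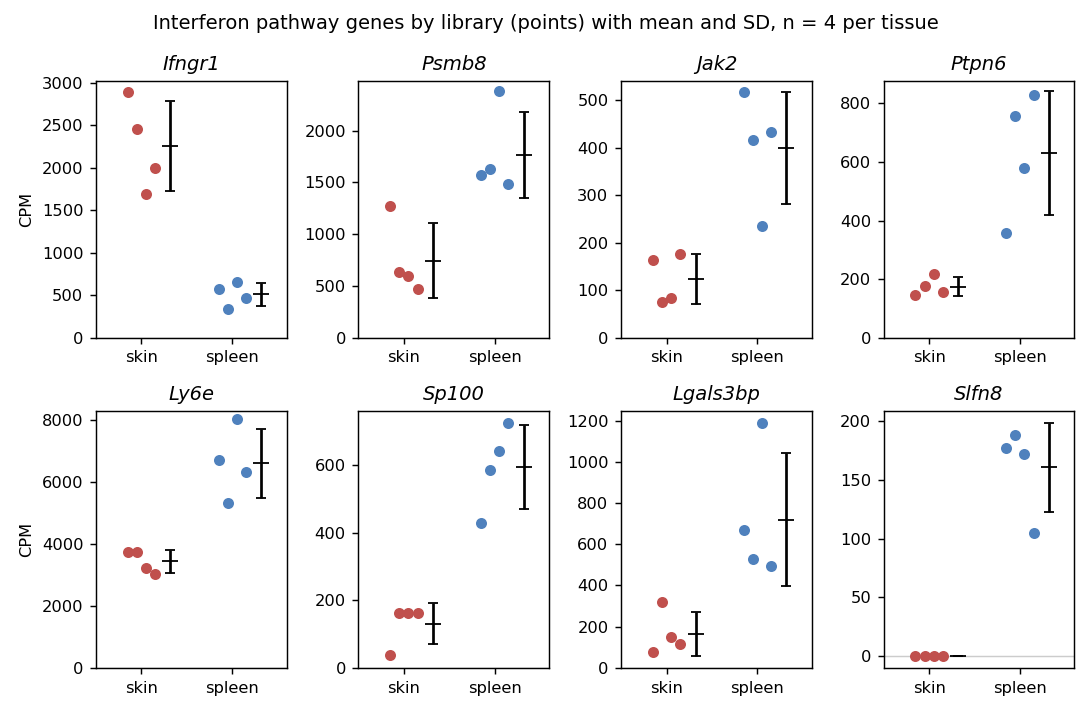
Level of 8 genes of the wider interferon pathway in CPM (vertical axes, linear) in each of the 4 skin libraries (red points) and the 4 spleen libraries (blue points), with the mean and SD of each tissue. Ifngr1 lies between 1687 and 2894 CPM in skin and between 340 and 656 CPM in spleen, and the other 7 genes lie lower in every skin library than in every spleen library.

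Markers of other cell types moved with tissue beside these genes. Keratinocyte markers summed to 273 to 1032 CPM in skin libraries (8 of 12 detected, with Trp63, Dsp and Dsc3 at 0) and to 0 to 29.5 CPM in spleen libraries (3 of 12 detected). Perp stood at 198, 151, 188 and 75.97 CPM in skin and had no count in spleen, and was called higher (edgeR adjusted p = 0.0328), a call kept without skin replicate 4 (edgeR adjusted p = 0.0447) and lost in the other 7 fits without 1 library (edgeR adjusted p up to 0.0829). Sfn stood at 113, 35.4, 165 and 75.7 CPM in skin, against at most 1.34 CPM in spleen, and was not called (edgeR adjusted p = 0.112). Markers of dendritic cells and macrophages summed to 423 to 690.2 CPM in skin (8 of 18 detected) and to 110 to 455 CPM in spleen (9 of 18 detected), with Csf1r and Emr1 at 0 in both tissues. Of these sums, Fcer1g alone made up 175 to 354 CPM in skin and 25.7 to 108 CPM in spleen, and was not called (edgeR adjusted p = 0.0699). Markers of plasmacytoid dendritic cells, a major source of type I interferon, summed to 66.8 to 177 CPM in skin (5 of 9 detected) and to 0 to 99.8 CPM in spleen (3 of 9 detected), with Siglech and Spib at 0 in both. B cell markers summed to 0 to 76.1 CPM in skin (1 of 10 detected) and to 48.9 to 235 CPM in spleen (6 of 10 detected). Neutrophil markers summed to 0.303 to 83.9 CPM in skin (3 of 7 detected) and to 20.1 to 109 CPM in spleen (7 of 7 detected). Erythroid markers summed to 0 to 2.12 CPM in skin (2 of 7 detected) and to 111 to 274 CPM in spleen (5 of 7 detected). Fibroblast markers summed to 0 to 168 CPM in skin (3 of 8 detected) and to 0 in spleen (0 of 8 detected). Melanocyte markers summed to 24.6 to 43.4 CPM in skin (1 of 5 detected) and to 28.2 to 95.3 CPM in spleen (2 of 5 detected). Endothelial markers summed to at most 77.1 CPM in skin, against 57.4 CPM in spleen (1 of 8 detected in each), and mast cell markers to 0 in skin (0 of 7 detected) and at most 0.892 CPM in spleen (1 of 7 detected). With the marker genes removed before scaling (6905 genes tested), 3 members were again called lower and 0 higher. This took out marker rows and left the member counts as they were, so it is no check on RNA from other cells. The part of RNA from other cells in the member levels was not tested. Ccr10, the reporter locus, stood at 20.5 ± 23.7 CPM in skin, against 19.6 ± 17.3 CPM in spleen (SD, n = 4 each). Of the CD3 chains, Cd3e stood at 589 ± 252 CPM in skin, against 528 ± 43.3 CPM in spleen, Cd3g at 1032 ± 42.1 CPM in skin, against 1273 ± 113 CPM in spleen, and Cd3d was the one called lower (SD, n = 4 each).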

How the data were processed

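RNA of iNKT cells was extracted with the RNeasy plus micro kit, made into SMART-Seq v4 libraries and sequenced in pairs of 75 bp, per the labels' protocols. The values are expected counts per gene, deposited by the authors. Per the submitters' processing notes, FastQC, RSEM and DESeq2 1.16.1 were used with build mm9, and their roles and settings are unknown from those notes. The kit does not mark strand, so reads of overlapping and antisense genes cannot be told apart, and expected counts are divided among near-identical copies.

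Expected counts were rounded to whole numbers, and 0 columns were left unused. edgeR 4.0.16 (R 4.3.3) was run with filterByExpr, TMM scaling, a quasi-likelihood fit over all 8 libraries with tissue as the only term, and Benjamini-Hochberg adjustment over 6920 genes at 0.05. The common dispersion was 2.94. CPM use TMM-scaled library sizes. For genes at 0 the floor was 3 counts per library (0.292 to 0.454 CPM), averaged over the tissue. Scripts were tested on simulated data. Alternatives used RLE and upper-quartile scaling, other filters, DESeq2 1.42.0, limma-voom (limma 3.58.1), a replicate block, removal of marker genes and single libraries left out. The text names all 31 members, and of each pathway list every called gene and the 3 with the highest mean CPM, with Ifng, Ifnar1, Ifngr1, Jak1 and Socs1 always given; 1 further gene of this rule is not reported here. Names outside this rule are stated as such or were chosen after their values were seen (Ifngr2). Members and lists were chosen with earlier results of these data known.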

Additional observations from a re-analysis of the deposited data

Results flagged for a closer look

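In 21 of 120 sets of 4 libraries examined, 1 library stood far from the other 3 by Dixon's gap ratio at its 95% critical value. A chance rate of about 1 in 20 holds for normally distributed values, which counts with many zeros are not. A count in 1 library with the others at 0 is always flagged. Many of the 21 sets are counts in 1 library with the others at or near 0, so their number is no measure of excess over chance. No cause was tested.

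Among members in skin, replicate 1 stood apart for Ddx58 (122.8 CPM) and Ifi35 (221 CPM), and replicate 2 for Oas3 (24.98 CPM) and Bst2 (35.54 CPM). Skin replicate 3 stood apart for Ifih1 (17.37 CPM), Ifit1 (66.07 CPM), Trim25 (3.405 CPM) and Adar (93.31 CPM). Skin replicate 4 stood apart for Irf9 (64.39 CPM), Stat2 (72.86 CPM), Xaf1 (1.836 CPM) and Rtp4 (38.27 CPM). Among members in spleen, replicate 4 stood apart for Stat2 (75.37 CPM), Oas2 (18.14 CPM) and Oas3 (69.57 CPM), and replicate 3 for Ifit2 (89.79 CPM).

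Among pathway genes, Sp100 was low in skin replicate 1 (39.05 CPM). Spleen replicate 1 was high for Irf2 (234.3 CPM) and Samhd1 (822.7 CPM), and spleen replicate 3 was high for Psmb8 (2378 CPM) and Socs1 (140.4 CPM).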

How the results depend on the processing

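The number of members called lower in skin was 3, and it was 6 with DESeq2 and 9 with limma-voom. It was 1 without the filter (Ifit3), 1 (Xaf1) with only genes found in 3 or more libraries per tissue, and 0 to 4 without 1 library. The 9 under limma-voom were Irf1, Irf9, Dhx58, Ifit1, Ifit3, Bst2, Xaf1, Rtp4 and Parp14. That fit called 7.23% of all genes tested lower. The number called higher was 0, and 1 with DESeq2 (Isg15). Of the pathway genes, 8 were lower, and 18 with DESeq2, 4 without the filter, 4 with only genes found in 3 or more libraries per tissue and 1 to 6 without 1 library. The number higher was 1, and 3 with DESeq2 and 2 with limma-voom. Over all genes, 248 were lower, and 447 with DESeq2, 500 with limma-voom, 48 without the filter, 42 with only genes found in 3 or more libraries per tissue and 17 to 111 without 1 library. The number higher was 128, and 295 with DESeq2, 207 with limma-voom and 47 to 102 without 1 library.

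Libraries with the same replicate number did not deviate together (correlations of −0.0003 to 0.0138), and 1 of 4 skin libraries correlated best with its own number. With the replicate number as a block, 0 members, 0 pathway genes and 14 genes in all were called lower, and 0 members, 1 pathway gene and 36 genes in all were called higher. RLE and upper-quartile scaling, a filter of 5 CPM in 4 libraries and removal of marker genes each left 3 members lower. In the same order, 8, 7, 9 and 8 pathway genes were called lower.

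The log2 fold change of Gbp3 was 0.75 and ranged from −0.058 to 1.26 without 1 library, turning without skin replicate 1. Over the tested members' fold changes, 321 alternative values kept direction and side of the threshold, 23 lost the call, 14 gained one and 1 turned. The skin minus spleen difference in genes with a count was −2381, and −2917 to −1691 without 1 library (exact permutation p = 0.0571 each, the smallest possible). Counts at 0 in skin limit what can be said of genes below about 160 CPM, since 20.5% of skin values of genes at 80 to 160 CPM stood at 0. For counts that moved, the cause was not tested.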

Other observations

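The following genes of the wider lists were picked after their values were seen. Ifitm2, which restricts virus entry, stood at 114, 110, 123 and 139 CPM in skin, against 0, 0, 15.1 and 1.19 CPM in spleen. Every skin value lay above every spleen value, and the change was not called (edgeR adjusted p = 0.465; DESeq2 0.0453). Ifi27l2a stood at 0, 25.2, 10.9 and 53.5 CPM in skin, against 407, 872, 785 and 619 CPM in spleen and missed the threshold (edgeR adjusted p = 0.0851). Psmb9, an immunoproteasome subunit, stood at 192, 46.8, 52.1 and 26.1 CPM in skin, against 462, 268, 440 and 325 CPM in spleen and missed the threshold (edgeR adjusted p = 0.105).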
